A study of Homo sapiens with 6 samples.

Results

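The 35 genes described here are known targets of the transcription factor NF-κB. They were listed by symbol, as feedback regulators, cytokines, chemokines and surface proteins that NF-κB induces, and each matched 1 of the 62703 Ensembl gene IDs in the deposited tables. Their RNA was measured in NCI-H929 (H929), an established human multiple myeloma line labelled WT, by paired-end RNA sequencing. The treated group received 1 µM Mi-2, which blocks the protease MALT1, for 24 h, and the control group received DMSO for 24 h, with 3 libraries each. All 6 libraries came from the same line and share its genetic background. Nothing in the labels ties the libraries to separate cultures (each title ends in bio rep 1), so the p-values reflect the spread among these samples alone, and part of that spread may be technical. In bulk RNA, fewer cells that express a gene and less RNA of it per cell cannot be told apart.

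NF-κB dimers are held in the cytoplasm by inhibitory IκB proteins until an IκB kinase complex marks those inhibitors for destruction. MALT1 acts upstream of that kinase, in a complex with BCL10, both as a scaffold and as a protease. Once in the nucleus, NF-κB switches on the genes of its own inhibitors, such as NFKBIA and TNFAIP3, so that their RNA follows the activity of the pathway. Myeloma cells often carry or receive signals that keep this pathway active, among them signals through the surface receptor BCMA, which the study's title places upstream of NF-κB.

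RefSeq upstream sequences (GRCh38.p14) were found for 29 of the 35 genes. The 250 bases before each RefSeq start were searched on both strands for the κB consensus, the DNA element bound by NF-κB, and at least 1 match was found in 13 of the 29, against 9.6% of 27305 promoters of the same length. The share among the 29 was 44.8%, and no test was made of it. A match describes the letters only. Elements in the window that depart from the consensus are missed, and a gene without a match may also have elements elsewhere. The window of NFKBIA, whose level differed several-fold among the control libraries, is shown whole (chr14:35404750-35404999, minus strand), with the match in capitals.

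NFKBIA: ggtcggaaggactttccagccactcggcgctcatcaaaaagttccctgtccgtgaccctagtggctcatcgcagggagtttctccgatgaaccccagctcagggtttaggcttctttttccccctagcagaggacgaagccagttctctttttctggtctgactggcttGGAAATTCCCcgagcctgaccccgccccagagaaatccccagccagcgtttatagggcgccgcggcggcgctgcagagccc

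Matches of 7 other genes, all tested and with levels given below, are shown with their flanks, each 5′ to 3′ on the strand of the gene and with the matched bases in capitals. The genes were TNFAIP3 (chr6:137867188-137867217, plus strand), NFKB1 (chr4:102501300-102501329, plus strand), REL (chr2:60881518-60881547, plus strand), NFKBIZ (chr3:101827757-101827786, plus strand), MAP3K8 (chr10:30433982-30434011, plus strand), IRF1 (chr5:132490804-132490833, minus strand) and GADD45B (chr19:2475954-2475983, plus strand). TNFAIP3 has 2 separate matches side by side, in REL 2 matches overlap, and of the 2 matches of GADD45B the one farther from the start is shown. Matches were also found for CXCL10, LTB, EBI3, CCL20 and CCL22, all of low or no counts here.
TNFAIP3: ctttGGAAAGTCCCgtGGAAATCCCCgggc
NFKB1: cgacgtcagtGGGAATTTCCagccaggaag
REL: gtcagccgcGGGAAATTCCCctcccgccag
NFKBIZ: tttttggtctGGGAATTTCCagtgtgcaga
MAP3K8: ggggagacgcGGAATTTCCCagcgcggggg
IRF1: ggccagggctGGGGAATCCCgctaagtgtt
GADD45B: gcccccacgtGGGGCGCCCCcgcacgccgc

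Libraries held 19980700 to 23756700 estimated counts (to the nearest 100). Mitochondrial mRNAs took 4.23 to 4.66% of the counts with DMSO and 4.86 to 5.05% with Mi-2. Of 12 plasma cell markers, 11 reached 1 CPM (counts scaled to the TMM-normalised library size), and of these SDC1 and CD38 fell while IRF4 and MZB1 rose with Mi-2. Myeloid markers were near 0 (0 of 12 reached 1 CPM, summed level 1.19 to 1.38 CPM with DMSO and 0.862 to 1.90 CPM with Mi-2), and CD22 of the mature B cell list was listed at 0 (3 of 8 reached 1 CPM, summed 7.96 to 11.3 and 9.21 to 10.9 CPM). T and NK cell markers summed to 175 to 200 CPM with DMSO and 198 to 256 CPM with Mi-2, from NCAM1 and CD3E, with CD3D, CD8A and CD8B at 0. Markers of stroma, endothelium and epithelium summed to 65.2 to 79.4 and 90.9 to 107 CPM (PECAM1, KRT18 and KRT8, the only 3 of 12 to reach 1 CPM), with COL1A2, COL3A1 and CDH5 at 0. Of these other markers, CD3E (edgeR adjusted p = 0.0180), PECAM1 (0.0488) and KRT18 (0.00853) rose with Mi-2. Of 2 markers listed for H929, FGFR3 fell (edgeR adjusted p = 0.00209) and NSD2 was not called. Among all genes tested, 6.03% were called lower and 5.02% higher. The part of these markers in the results was not tested.

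Most of the NF-κB target genes had lower means with Mi-2, but the control libraries differed widely from each other and a single gene, IRF1, passed the test. Of the 35 genes, 25 passed the filter on low counts. Of these, 23 had a negative log2 fold change (92.0%, against 49.3% of all 16082 genes tested). The median was -0.34, against 0.00 over all genes tested. The genes were chosen with earlier results of these data known, which limits this contrast with all genes. They also moved together by library, with DMSO library 1 the lowest control for 20 of the 25. The 23 signs are therefore not 23 separate observations, and no test was made of their share. IRF1 fell, and the other 24 were not called. By comparison, 6.03% of all tested genes were called lower and 5.02% higher by edgeR at an adjusted p under 0.05, so 1 called gene of 25 is near the background. The groups were separate in CPM, with Mi-2 lower, for IRF1, MAP3K8 and CCL5, which is 3 of 25, against 16.6% of all genes tested.

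**Figure D1:**
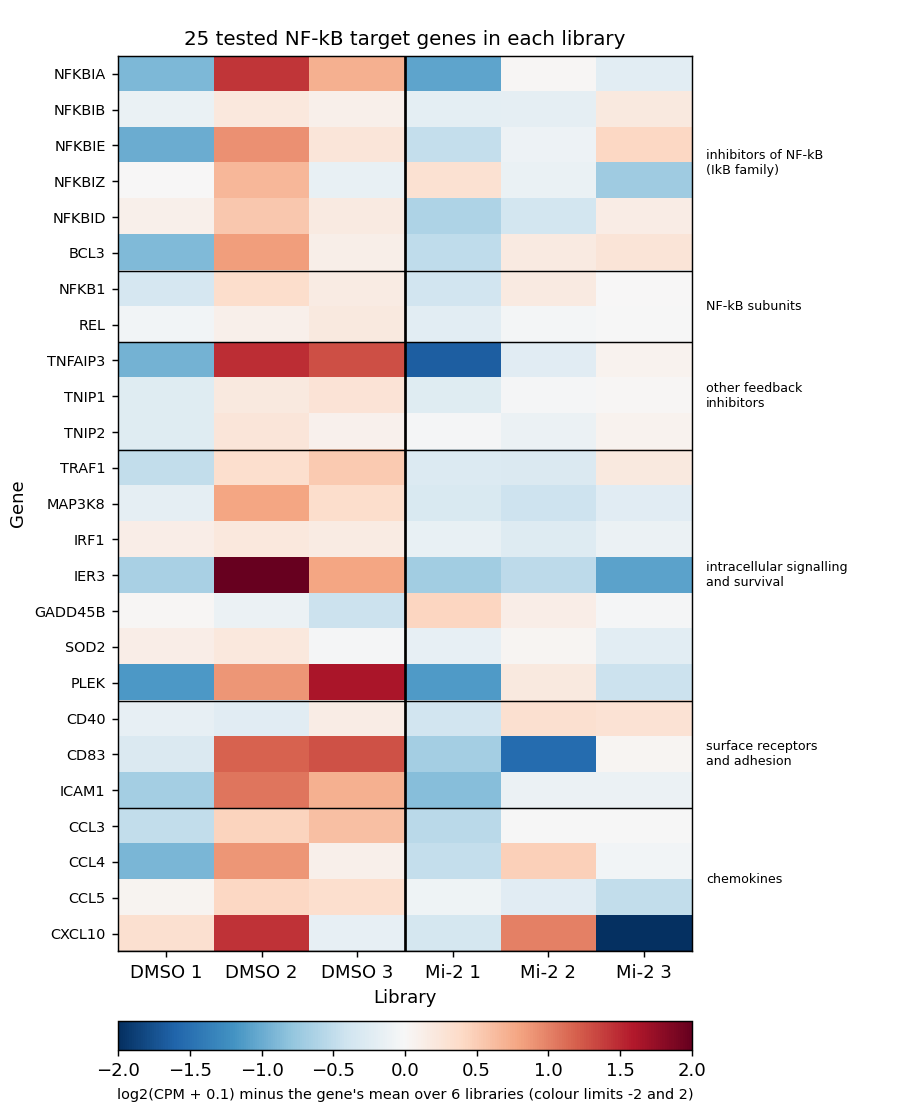
Level of the 25 tested genes (rows, grouped by role) in each of the 6 libraries (columns), as log2(CPM + 0.1) minus the mean of that gene, with blue for lower and red for higher. DMSO libraries 2 and 3 are the reddest columns, while DMSO library 1 is blue for most genes, as is Mi-2 library 1.

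The spread followed the library. Relative to each gene's own mean over the 6 libraries, on the log2(CPM + 0.1) scale, the median of the 25 genes was -0.24, 0.54 and 0.20 in DMSO libraries 1, 2 and 3. The corresponding medians with Mi-2 were -0.38, -0.10 and -0.02. DMSO library 1 therefore lay below Mi-2 libraries 2 and 3, and the groups overlapped. Over all genes tested these medians ran from 0.00 to 0.01. DMSO library 1 was the lowest of the 3 controls for 20 of the 25 genes (34.3% of all genes tested), and DMSO library 2 the highest for 17 (32.6% of all). Mi-2 library 1 was the lowest treated library for 14 of 25 (34.7% of all). Among the controls, the highest level was more than 2-fold above the lowest for 13 of the 25 genes, against 11.9% of all genes tested, and the median ratio was 2.02, against 1.24.

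Values below are CPM in the order of libraries 1, 2 and 3, and each log2 fold change is Mi-2 minus DMSO with its standard error from edgeR. The 6 genes of the IκB family, which bind NF-κB and hold back or shape its activity, all had negative log2 fold changes and none was called. NFKBIA, which encodes IκBα (chromosome 14, 35401511 to 35404749, minus strand, GENCODE 29 on GRCh38), stood at 25.3, 128 and 77.6 CPM with DMSO and 22.9, 48.0 and 41.1 CPM with Mi-2. Libraries 2 and 3 of the controls were above every treated library, but library 1 was not, and the difference (-1.04 ± 0.47) did not pass (edgeR adjusted p = 0.185). NFKBIE (IκBε) stood lower and its groups overlapped more, with 2.34, 9.11 and 5.63 CPM against 3.40, 4.44 and 6.37 CPM (-0.27 ± 0.41). BCL3, a nuclear IκB protein that can act as a coactivator, had 144, 539 and 312 estimated counts with DMSO and 206, 347 and 378 with Mi-2 (-0.18 ± 0.36). By CPM, for both genes DMSO library 1 was the lowest of all 6 libraries and DMSO library 2 the highest. NFKBID, another nuclear member of the family, stood at 9.89, 13.4 and 10.4 CPM against 5.94, 7.11 and 10.2 CPM (-0.53 ± 0.21, edgeR adjusted p = 0.140), with only Mi-2 library 3 inside the control range. NFKBIZ, which encodes the nuclear protein IκBζ, departed from this order, at 13.5, 21.5 and 12.2 CPM against 16.7, 12.3 and 8.22 CPM (-0.35 ± 0.27). NFKBIB (IκBβ) ran from 19.9 to 26.4 CPM over all 6 libraries (-0.12 ± 0.14). NFKBIB overlaps SIRT2 on the other strand, and whether counting used strand is not given in the sources used here.

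Of the genes of DNA-binding subunits, the members are NFKB1 and REL, whose controls had a median ratio of the highest to the lowest of 1.40. NFKB1, the precursor of p50, had 34.9, 55.9 and 49.3 CPM with DMSO and 33.7, 49.6 and 44.2 CPM with Mi-2 (-0.14 ± 0.18). REL, which encodes c-Rel, had 52.8, 59.1 and 62.8 CPM against 47.5, 53.2 and 54.8 CPM (-0.17 ± 0.10, edgeR adjusted p = 0.290). In both genes library 1 was the lowest of its group and the groups overlapped. REL also overlaps an unnamed RNA gene on its own strand (992 to 1238 estimated counts per library), with which reads may be shared.

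Among the other feedback inhibitors, TNFAIP3, which encodes the ubiquitin-editing enzyme A20 (chromosome 6, 137867188 to 137883312, plus strand), had the widest spread. It stood at 14.6, 79.0 and 69.7 CPM with DMSO and 8.94, 24.1 and 29.8 CPM with Mi-2. Control library 1 was below treated libraries 2 and 3, and the difference of -1.38 ± 0.55 did not pass (edgeR adjusted p = 0.142). Its ratio of the highest to the lowest control was 5.42, and 5.07 for NFKBIA. TNIP1, a binding partner of A20, had 87.3, 118 and 125 CPM against 87.2, 101 and 105 CPM (-0.17 ± 0.13), so that the libraries numbered 1 were lowest and nearly equal. TNIP2, a related A20-binding protein, had 11.8 to 16.5 CPM over the 6 libraries (-0.06 ± 0.15).

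**Figure D2:**
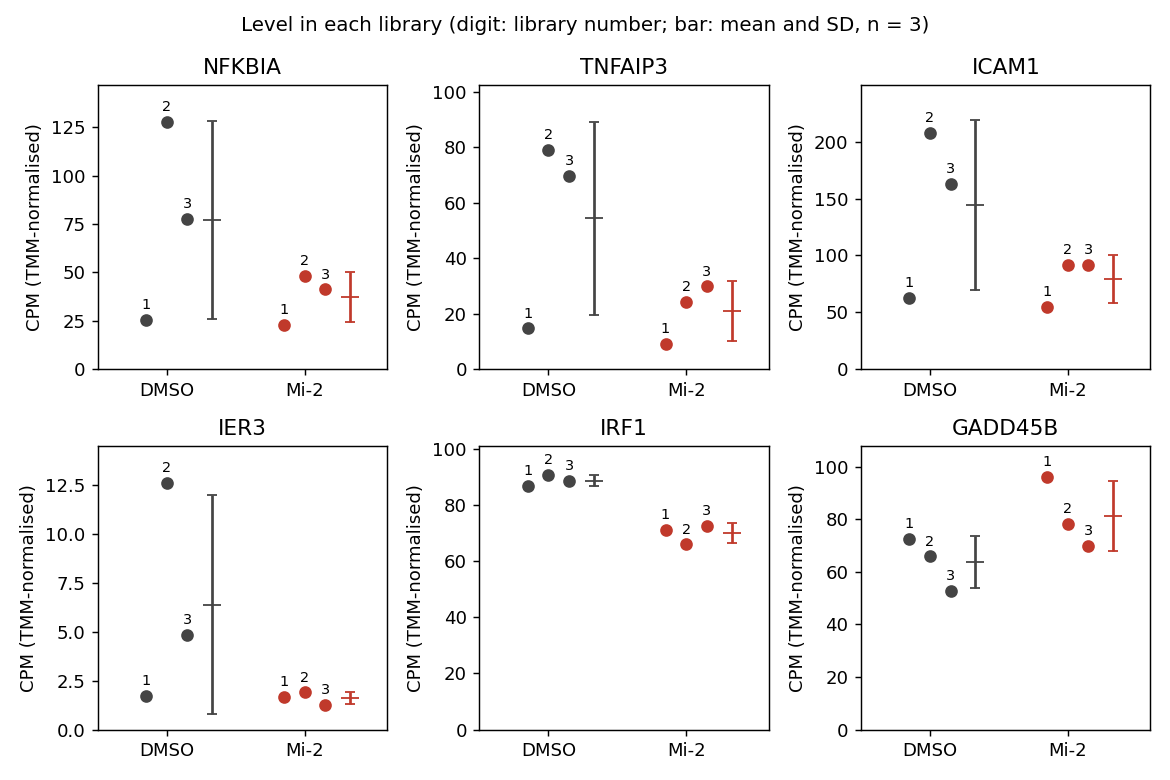
CPM (TMM-normalised) of 6 genes in each DMSO (grey) and Mi-2 (red) library, with the library number above each point and the mean and SD (n = 3) beside the points. For NFKBIA, TNFAIP3, ICAM1 and IER3 control libraries 2 and 3 lie above all treated libraries and control library 1 does not, IRF1 is separate between groups, and GADD45B has a higher mean with Mi-2.

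Of the 8 genes of intracellular signalling and survival, 7 were tested and IRF1 fell. IRF1, a transcription factor of interferon responses (chromosome 5, 132481609 to 132490798, minus strand), had 86.6, 90.6 and 88.4 CPM with DMSO and 71.2, 65.9 and 72.6 CPM with Mi-2. The controls lay within a ratio of 1.05 of each other and all were above the treated libraries, giving -0.34 ± 0.08 (1.27-fold lower, edgeR adjusted p = 0.0241). The call was lost on leaving out any 1 control (adjusted p = 0.0506, 0.0886 and 0.0756 for controls 1, 2 and 3), treated library 1 (0.0793) or treated library 2 (0.0632), with log2 fold changes of -0.36 to -0.30. In the deposited TPM, which corrects for transcript length, IRF1 stood at 96.3, 102 and 57.9 with DMSO and 74.1, 67.8 and 47.5 with Mi-2. On that scale the groups overlapped, library 3 was lowest in both groups, and limma on log2(TPM + 1) did not call the gene (adjusted p = 0.375). None of the members was called lower by limma on log2(TPM + 1) or log2(TPM + 0.1), where 2.73% and 2.85% of all genes tested were. IRF1-AS1 and an unnamed gene lie over IRF1 on the other strand, with 354 to 455 and 508 to 648 estimated counts per library.

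IER3, a stress-responsive survival gene (chromosome 6, 30743199 to 30744554, minus strand), had the largest negative value of the 25. It stood at 1.74, 12.6 and 4.84 CPM with DMSO and 1.68, 1.90 and 1.26 CPM with Mi-2. The treated libraries were close together, and control library 1 lay among them (-1.99 ± 0.58, edgeR adjusted p = 0.0556). MAP3K8, the kinase TPL2, ran from 2.04 to 4.11 CPM with DMSO and from 1.72 to 1.97 CPM with Mi-2, so its groups were separate by a small margin (-0.72 ± 0.29, edgeR adjusted p = 0.142). Its estimated counts were low, at 41, 93 and 65 with DMSO and 41, 40 and 47 with Mi-2. In TPM its groups overlapped (1.31, 2.59 and 1.82 against 1.18, 1.55 and 1.03). PLEK, which encodes pleckstrin, had 0.447, 2.12 and 3.64 CPM against 0.454, 1.29 and 0.797 CPM (-1.28 ± 0.64). TRAF1, a signalling adaptor of the TNF receptor family, had 3.43, 6.19 and 7.05 CPM against 4.04, 3.97 and 5.62 CPM (-0.29 ± 0.27). In PLEK and TRAF1 control library 1 again stood below the other controls, and neither passed. SOD2, the mitochondrial superoxide dismutase, had 94.0, 99.4 and 84.5 CPM against 76.7, 87.6 and 73.7 CPM (-0.22 ± 0.10, edgeR adjusted p = 0.175). GADD45B, a stress gene (chromosome 19, 2476122 to 2478259, plus strand), had a positive value instead. Its levels were 72.4, 65.9 and 52.8 CPM with DMSO and 96.0, 78.2 and 69.9 CPM with Mi-2, and here library 1 was the highest in each group (0.35 ± 0.14, edgeR adjusted p = 0.141).

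The surface proteins were led by ICAM1, an adhesion receptor for leukocyte integrins (chromosome 19, 10270835 to 10286615, plus strand). ICAM1 stood at 62.3, 208 and 163 CPM with DMSO and 54.8, 91.4 and 91.5 CPM with Mi-2. As for NFKBIA, control library 1 lay below treated libraries 2 and 3, and the difference of -0.87 ± 0.36 did not pass (edgeR adjusted p = 0.157). CD83, an activation marker of B and dendritic cells, was rare, with 9, 32 and 33 estimated counts with DMSO and 7, 3 and 14 with Mi-2 (-1.70 ± 0.60, edgeR adjusted p = 0.101). CD40, a costimulatory receptor of the TNF receptor family, had 12 to 22 counts per library (0.21 ± 0.38). CD69, an early activation antigen, had 0 to 6 counts per library and was not tested.

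The chemokine genes CCL3 and CCL4 had the highest levels of the 35 genes per length. CCL3 (chromosome 17, 36088256 to 36090169, minus strand) had a TPM of 615 ± 208 (SD, n = 3) with DMSO and 448 ± 78.4 with Mi-2, and CCL4 223 ± 127 and 194 ± 62.0. Both attract monocytes and other leukocytes, and myeloma cells are known to secrete CCL3. With DMSO the lowest CCL3 library (376 TPM) was above the highest CCL4 library (360 TPM), and the lowest CCL4 library (108 TPM) was above the highest IRF1 library (102 TPM). Below these, IRF1 (85.4 ± 23.9), GADD45B (76.5 ± 14.6), NFKBIA (71.0 ± 47.1), ICAM1 (26.8, 92.4 and 66.3 in libraries 1 to 3) and TNIP1 (53.5 ± 9.45) followed in mean control TPM, and neighbours in this order overlapped. In all, 15 of the 35 genes had a mean TPM of at least 10 over the 6 libraries.

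On the CPM scale CCL3 had 170, 324 and 360 with DMSO and 164, 238 and 236 with Mi-2, with the libraries numbered 1 lowest and close to each other (-0.42 ± 0.25, edgeR adjusted p = 0.307). CCL4 stood at 36.0, 125 and 73.4 CPM against 48.7, 94.6 and 65.4 CPM (-0.17 ± 0.37). Both have near-identical copies, CCL3L3 and CCL4L2, whose reads could not be told apart with certainty. CCL3L3 had 272, 819 and 860 counts with DMSO and 253, 471 and 496 with Mi-2, and CCL4L2 had 147, 851 and 373 against 190, 497 and 326. Each copy thus had its lowest control in library 1, as its partner did. CCL5, an attractant of T cells, behaved differently, with 11.9, 15.2 and 14.4 CPM against 10.8, 9.79 and 8.09 CPM, which do not overlap (-0.53 ± 0.15, edgeR adjusted p = 0.0541). DESeq2 called CCL5 as well as IRF1 (adjusted p = 0.0240 for CCL5), which makes 2 of 25 where 7.97% of all tested genes were called lower. CXCL10, an interferon-inducible chemokine, had 10, 27 and 7 counts with DMSO and 6, 20 and 0 with Mi-2 (-0.83 ± 0.88).

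Among the 35 genes, those of other secreted mediators were close to undetected. No read was assigned in any library to TNF, the cytokine that gave its name to the family, or to CCL20, an attractant of lymphocytes and dendritic cells. A count of 0 allows a level of up to 0.126 to 0.150 CPM per library (3 counts), covering counting error only. The neutrophil attractant CXCL8 (0 to 2 counts per library), the cytokine subunit EBI3 (0 to 8), the TNF-inducible gene TNFAIP2 (0 to 4) and the lymphotoxin subunit LTA (1 to 11) were also too rare to test. IL10, an anti-inflammatory cytokine, had 19, 4 and 9 counts with DMSO and 1, 0 and 6 with Mi-2. LTB, a subunit of lymphotoxin, had 1, 6 and 9 against 0, 0 and 1, and CCL22, a T cell attractant, had 1, 1 and 13 against 0, 0 and 0. With CD69, these make the 10 genes of 35 that carry no test here, since their counts did not pass the filter.

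**Figure D3:**
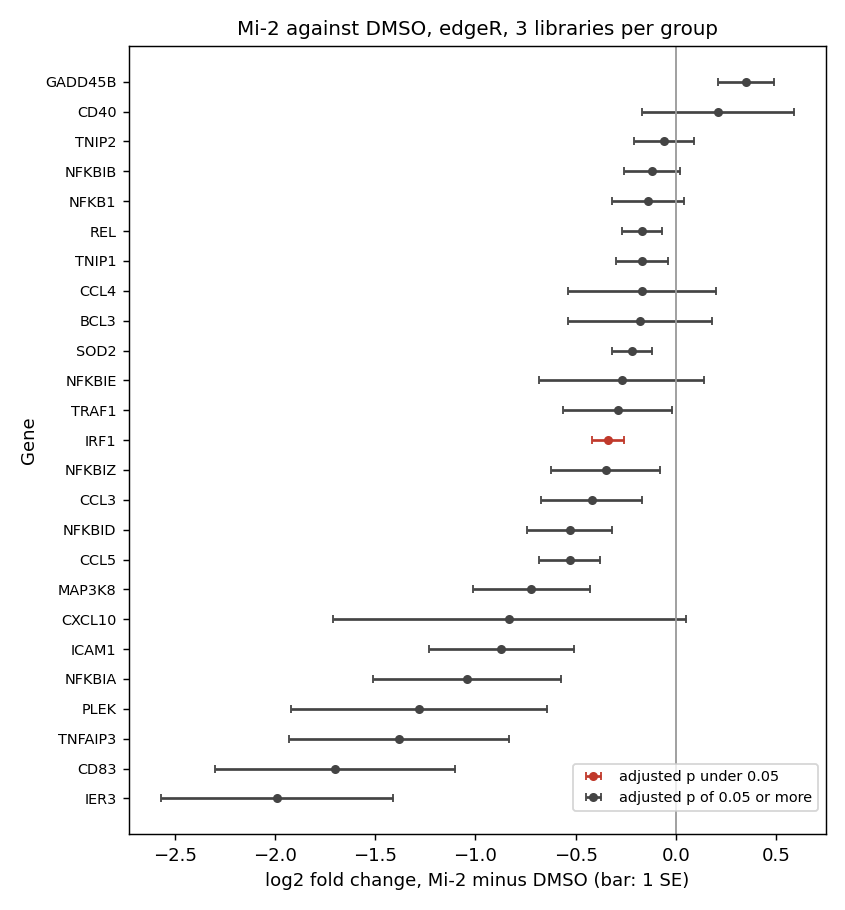
Log2 fold change (Mi-2 minus DMSO) of the 25 tested genes from edgeR, with bars of 1 standard error and the called gene in red. IRF1 has a small value with a short bar, while IER3, CD83, TNFAIP3, PLEK and NFKBIA have larger negative values with long bars.

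The result turned on which libraries, control or treated, were included, on removing the filter on low counts and on using the library number as a block. A stricter filter (at least 1 CPM in 3 libraries) left IRF1 as the only called member. DMSO library 1 was the lowest control for 20 of the 25 genes (34.3% of all genes tested), so leaving it out raises their control means. Calls made without it are therefore no separate support. Without DMSO library 1, 8 of the 25 genes were called lower (4.45% of all genes tested in that fit), and the median log2 fold change was -0.54. These were NFKBIA (-1.46, edgeR adjusted p = 0.0166), TNFAIP3 (-1.83, 0.0173), ICAM1 (-1.23, 0.0106), IER3 (-2.44, 0.00896), CCL3 (-0.68, 0.0298), CCL5 (-0.63, 0.0448), CD83 (-2.07, 0.0463) and PLEK (-1.75, 0.0406). Without DMSO library 2 the median was -0.17 and none was called (2.37% of all genes tested), and NFKBIA had -0.46 (edgeR adjusted p = 0.586). None was called without DMSO library 3 (2.53% of all), Mi-2 library 1 (1.83%) or Mi-2 library 2 (4.49%) either. Without Mi-2 library 3, IRF1 and NFKBID (-0.78, edgeR adjusted p = 0.0389) were called, with 5.29% of all genes called lower. Without both libraries numbered 1, a fit chosen after seeing the data, 4 of 25 were called lower (NFKBIA, TNFAIP3, ICAM1 and IER3), against 1.08% of all genes tested, with values of -2.46 to -1.02, and IRF1 was not (adjusted p = 0.120). NFKBIE, BCL3 and CCL4, none of them called in any of these fits, had positive values (0.25 to 0.35) without DMSO library 2, and BCL3 (0.02) and CCL4 (0.04) also without Mi-2 library 1. NFKB1 (0.01) and TNIP2 (0.05) were also above 0 without DMSO library 2, and TNIP2 was in the limma fits on TPM (0.04 to 0.05). With no filter on low counts, 11 of 33 members were called lower (4.90% of all genes in that fit) and GADD45B higher (3.88%). The 11 included TNFAIP3, whose groups overlap, and CCL22, with 1, 1 and 13 counts with DMSO and 0, 0 and 0 with Mi-2. That count is therefore not read as a result about the members.

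**Figure D4:**
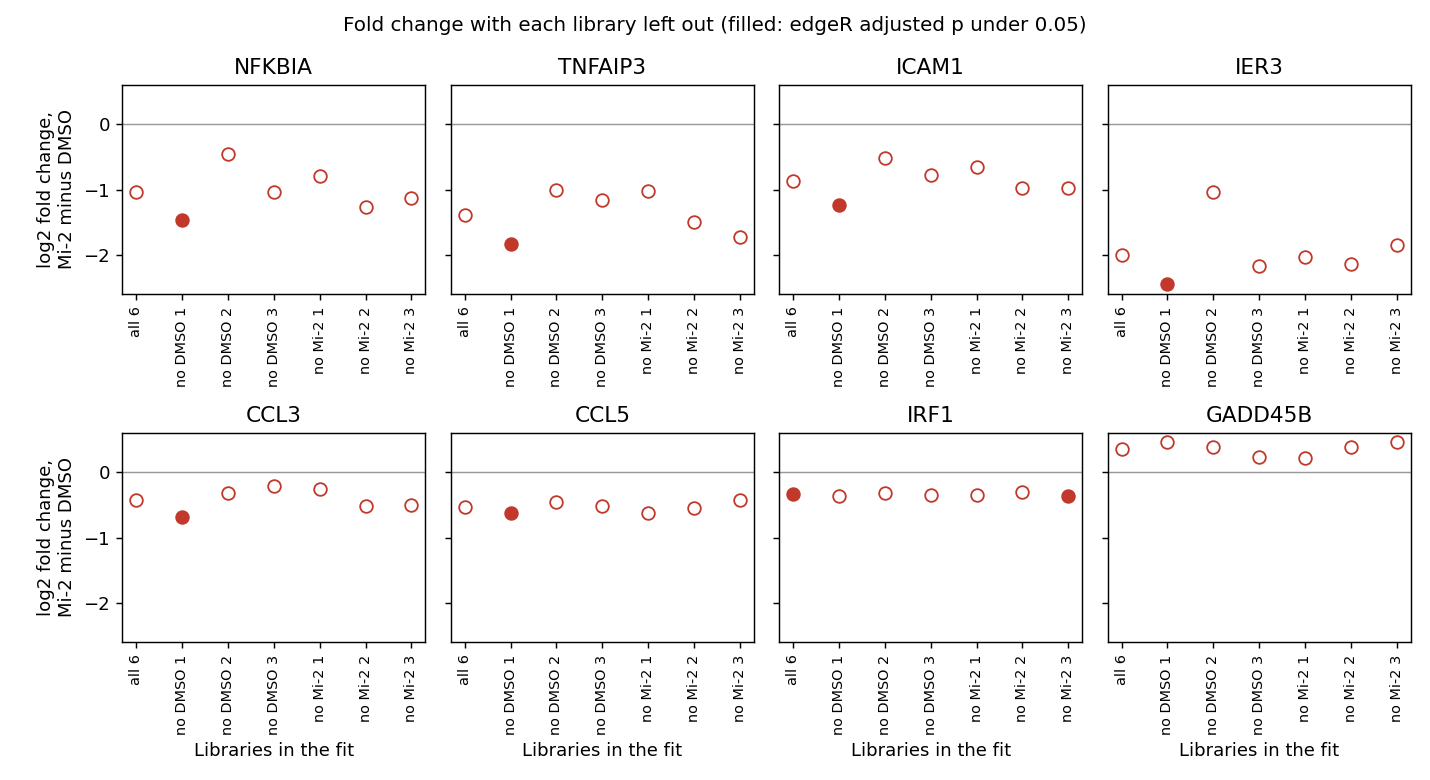
Log2 fold change (Mi-2 minus DMSO) of 8 genes in the edgeR fit of all 6 libraries and in the 6 fits that leave 1 library out, with filled points for an adjusted p under 0.05. NFKBIA, TNFAIP3, ICAM1, IER3, CCL3 and CCL5 are filled only without DMSO library 1, IRF1 only with all 6 libraries and without Mi-2 library 3, and GADD45B never.

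A second list of 30 NF-κB targets held 16 tested genes, of which 6 had negative values (49.3% of all genes tested), with a median of 0.16. IRF4, a transcription factor on which myeloma cells depend, rose from 1888, 1646 and 1643 CPM to 2213, 2162 and 2200 CPM (0.35 ± 0.09, edgeR adjusted p = 0.0441). No gene of this list was called lower, where 6.03% of all genes were called lower and 5.02% higher. The IRF4 call was kept without DMSO library 1 and lost without any other single library (adjusted p up to 0.165). BIRC3, an inhibitor of apoptosis (4.38, 24.8 and 31.4 CPM against 3.49, 9.79 and 10.5 CPM), RELB (10.6, 36.1 and 27.4 against 8.48, 12.4 and 18.0) and NFKB2 (59.4, 147 and 150 against 50.9, 71.8 and 93.9) each had their lowest control in library 1. RELB and NFKB2 encode subunits of the non-canonical branch. Their log2 fold changes of -1.35 ± 0.59, -0.93 ± 0.39 and -0.72 ± 0.32 had edgeR adjusted p-values of 0.177, 0.160 and 0.184. Without DMSO library 1 all 3 were called lower (0.0165, 0.0198 and 0.0172), where 4.45% of all genes were. They were also called lower with the library number as a block. That fit called 4 of the 16 lower and 4 higher, against 12.7% and 11.1% of all genes. BCL2L1 (0.25 ± 0.11) and BIRC2 (0.26 ± 0.09), survival genes of the same list, had positive values.

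The listed genes of the pathway to NF-κB, which pass on or restrain the signal, had no common direction as a mixed list. The 43 genes were receptors and ligands, the MALT1 complex and its substrates, adaptors and ubiquitin ligases, kinases and subunits. Of these, 40 were tested, 3 fell and 3 rose, with a median of 0.03, where 6.03% of all genes were called lower and 5.02% higher. RELA, the p65 subunit, ran from 101 to 114 CPM over the 6 libraries (0.07 ± 0.08). MALT1 (63.1, 69.0 and 66.3 CPM against 55.1, 59.2 and 50.2 CPM) did not pass (-0.27 ± 0.09, edgeR adjusted p = 0.0793), nor did its partner BCL10 (0.03 ± 0.15) or TNFRSF17, which encodes BCMA (-0.12 ± 0.13). With the library number as a block, 7 of the 40 were called lower, MALT1 among them, and 6 higher. The 7 include RELB and NFKB2, which are also on the second list of targets and are counted in both lists. In that fit 12.7% of all genes were called lower and 11.1% higher. The receptor genes of TNF moved apart. TNFRSF1A rose (9.20, 12.5 and 10.8 CPM to 16.4, 20.3 and 18.7 CPM, 0.77 ± 0.15, edgeR adjusted p = 0.0126) and kept its call with any single library left out, though not without both libraries numbered 1 (0.0588). TNFRSF1B fell (38.8, 43.1 and 41.2 CPM to 24.5, 23.6 and 32.0 CPM, -0.62 ± 0.13, edgeR adjusted p = 0.0153), but lost its call on leaving out control 2 (0.0652), control 3 (0.0504) or treated library 1 (0.0697). The adaptor TRADD rose (0.78 ± 0.20) and was called with a library left out only without Mi-2 library 2 (otherwise up to 0.143). TRAF3 (-0.47 ± 0.10) and TRAF2 (-0.43 ± 0.12) fell and TAB2 (0.37 ± 0.09) rose. TRAF3 lost its call on leaving out control 2, control 3 or treated library 1 (up to 0.0918), TRAF2 in every such fit but that without treated library 2 (up to 0.160), and TAB2 in every one but that without treated library 3 (up to 0.107).

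Immediate early genes, which respond to handling and growth signals within minutes, were read in the same libraries. JUNB is on this list and on the second list of targets. Of 18 listed, 15 were tested, 2 fell and 1 rose, with a median of -0.17, where 6.03% of all genes were called lower and 5.02% higher. JUN had its highest control in library 2 and its lowest in library 1 (6.81, 26.1 and 15.2 CPM against 6.62, 9.83 and 12.0 CPM, -0.76 ± 0.40, edgeR adjusted p = 0.256), and FOS had its lowest control in library 3 (2.59, 5.17 and 2.40 against 4.90, 2.59 and 1.55). EGR1 fell (4.33, 4.64 and 6.59 CPM to 1.36, 0.949 and 2.43 CPM, -1.71 ± 0.34, edgeR adjusted p = 0.0137), although not without DMSO library 3 (0.0556) or Mi-2 library 1 (0.0614). NR4A1 fell (-0.59 ± 0.14) and BTG2 rose (0.43 ± 0.09). NR4A1 was called with a library left out only without Mi-2 library 3 (otherwise up to 0.104), and BTG2 lost its call on leaving out control 2, control 3 or treated library 1 (up to 0.0642). Without both libraries numbered 1, none of the called genes of these 3 further lists kept its call (IRF4, TNFRSF1A, TNFRSF1B, TRAF2, TRAF3, TRADD, TAB2, EGR1, NR4A1 and BTG2, edgeR adjusted p = 0.0588 to 0.227). BIRC3 and NFKB2 were instead called lower in that fit, where 1.08% of all genes were. In limma on log2(TPM + 1), TNFRSF1A (0.0442) and BTG2 (0.0498) kept theirs and the other 8 did not (adjusted p = 0.0599 to 0.214). Relative to each gene's mean, the immediate early list had medians of -0.10, 0.25 and -0.04 in DMSO libraries 1, 2 and 3 and 0.10, -0.22 and 0.02 with Mi-2. Their part in the levels of the NF-κB targets was not tested.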

How the data were processed

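RNA of 6 H929 libraries was sequenced as paired ends on a NovaSeq, per the labels' protocols. The submitters' processing notes name RSEM 1.3.3, StringTie 2.1.0, HISAT2 2.1.0 and fastp 0.19.5 and build GRCh38.p13, without roles. The authors deposited estimated counts per gene, unscaled, and TPM, which correct for length. Strand use in counting is not given in the sources used here. Library numbers come from the titles. Differences within a group were 15.0 to 21.1 times the chi-square per degree of freedom of counting alone, so no library was a copy of another.

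Estimated counts were rounded, filtered (filterByExpr, minimum count 10, total 15) to 16082 genes, scaled by TMM and tested with edgeR 4.0.16 (R 4.3.3; quasi-likelihood F test, 3 against 3, no other term, Benjamini-Hochberg over all tested genes, threshold 0.05), which was checked on simulated counts. Standard errors were derived from the fold change and F statistic. The biological coefficient of variation was 14.2%. Symbols came from a table of Ensembl IDs (62625 of 62703), coordinates from GENCODE 29 (58279 IDs; SOD2's ID is not among them). Alternatives used DESeq2 1.42.0, limma 3.58.1 (voom, and a trend on log2 of TPM plus 1 or 0.1), other scalings and filters, leaving out each library in turn, and the library number as a block. The members and lists were chosen with earlier results of these data known. The genes named are all 35 members, every called gene of the 3 other lists, and TNFRSF17, MALT1, BCL10, RELA, RELB, NFKB2, BIRC3, FOS, EGR1 and JUN; 1 further gene of that rule is not reported here. BCL2L1, BIRC2, CCL3L3, CCL4L2, FGFR3, NSD2, JUNB and the genes under other observations were added after their values were seen.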

Additional observations from a re-analysis of the deposited data

How the results depend on the processing

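The median log2 fold change of the tested members stayed negative in every alternative run, from -0.54 (without DMSO library 1) to -0.17 (without DMSO library 2). The count of members called lower, 1 of 25, was 2 with DESeq2, 11 of 33 with no filter on low counts, 8 with the replicate block, 4 without both libraries numbered 1, 0 to 8 with 1 library left out, and 0 in the limma fits on log2(TPM + 1) (2.73% of all genes called lower), log2(TPM + 0.1) (2.85%) and log2(TPM + 1) with no TPM filter. For the limma fit with no TPM filter, all genes called were 0 lower and 0 higher. The count of members called higher, 0, became 1 (GADD45B) with no filter (3.88% of all genes) and with the block (11.1%). Without a filter, 4.90% of all 31459 genes were called lower, and TNFAIP3, whose groups overlap, had an edgeR adjusted p of 2.02e-27 against 0.142 with the filter; the cause was not tested.

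Over all genes, 969 were called lower and 808 higher. These counts were 1541 and 1221 with no filter, 381 and 229 on log2(TPM + 1), 398 and 249 on log2(TPM + 0.1), 2035 and 1791 with the block, 176 and 165 without both libraries numbered 1, and 302 to 866 and 216 to 715 with 1 library left out. The cause was not tested where the fit kept all libraries.

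The replicate block called NFKBIA (-0.87, edgeR adjusted p = 0.00970), TNFAIP3 (-1.27, 0.000652), ICAM1, IER3, CCL3, CCL5, IRF1 and SOD2 lower, where 12.7% of all genes were called lower. Of these 8, 6 were also called without DMSO library 1. Both fits drew on the same libraries, so this overlap is no separate support. Deviations of same-numbered libraries from their group means correlated at 0.48, 0.08 and 0.30 over all tested genes. Every library correlated best with its own number, but for number 2 by little. DMSO library 2 with Mi-2 library 3 had 0.06, and DMSO library 3 with Mi-2 library 2 had 0.07. Deviations within a group cancel out, so these correlations are not separate from each other. They are only a hint, and the labels name no pairs. Between libraries of the same number, the members' median of Mi-2 minus DMSO, on the log2(CPM + 0.1) scale, was -0.07, -0.63 and -0.28. Counts of 3 or fewer and the 10 untested members are limited by depth.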

Other observations

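A pair of listed genes had levels that went with the library number in both groups, and were picked after their values were seen. STAT5A, a transcription factor downstream of cytokine receptors, had no count in library 1 of either group, against 31 and 69 estimated counts in the other DMSO libraries and 17 and 91 in the other Mi-2 libraries. TLR4, the receptor for bacterial endotoxin, was highest in the libraries numbered 1, at 22.0, 8.93 and 9.45 CPM with DMSO and 18.3, 10.0 and 8.30 CPM with Mi-2. Neither was called (log2 fold change 0.00 ± 1.18 and -0.14 ± 0.38, edgeR adjusted p = 1.00 and 0.851).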
